A study of Mus musculus with 16 samples.

Results

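The genes described here encode the proteins of the cytosolic ribosome. They were chosen by symbol, as Rpl or Rps genes with a number and, where present, the endings a, x, l, al or l1, together with Rplp0, Rplp1, Rplp2 and Rpsa, without pseudogenes. The rule found 84 of the 24411 genes in the count table, of which 52 belong to the large (60S) subunit and 32 to the small (40S) subunit. The rule itself uses no measured value, but it was set with earlier results of these data known. Other parts of the ribosome, Rps3a1, Fau and Rack1 among them, have other names and fell outside it.

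RNA was measured in 16 libraries of muscle stem cells (MuSCs) sorted from hindlimb muscles of C57BL/6 mice, with 4 libraries in each of 4 groups: control and TRF2 MuSC-cKO, each uninjured or 3 days after the tibialis anterior received 10 µl of the snake toxin notexin (3 DPI). TRF2 is a telomere-binding protein encoded by Terf2. The knockout combines a floxed Terf2 allele (TRF2 fl/fl) with Pax7-CreERT2, a tamoxifen-dependent Cre that acts in cells expressing Pax7, so that cells without Pax7 keep the gene; the labels call the control Wildtype and do not say whether it carried the floxed allele, Cre or tamoxifen. The sort took cells negative for CD45, CD31, CD11b and Sca1 and positive for α7-integrin and for VCAM or CD34, and which of the pair was used for these libraries is not given; the labels give no age for single samples. The question is how the genes of the translation machinery differed between the genotypes and between injury states.

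A ribosome holds a single copy of nearly every ribosomal protein, and the mRNAs of these proteins are short, very abundant and usually rise and fall together. Their mRNAs begin with a run of pyrimidines, the 5′ terminal oligopyrimidine (TOP) motif, through which mTOR and the RNA-binding protein LARP1 control their translation and stability. Quiescent stem cells make little protein, and the output of ribosomes rises when the cells grow. Several ribosomal protein genes have a paralog expressed mainly in 1 tissue, such as Rpl3l in striated muscle and Rpl10l and Rpl39l in testis.

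The table of promoters from RefSeq (GRCm38.p6) covered 63 of the 84 genes with 75 windows of 300 bases, 250 before the annotated start and 50 from it. The windows below, 5′ to 3′ on the strand of the gene, run from 20 bases before the start through the first 25 bases of the transcript, and capitals mark the unbroken run of C and T that covers the start or the next base. Rpl15, Rplp2, Rpl31 and Rps27 are shown as genes with a long run, and Rps4x, Rpl41, Rps15 and Rpl36al as named genes with a run of at most 1 base at the annotated start.
Rpl15, chr14:18270962-18271006, minus strand: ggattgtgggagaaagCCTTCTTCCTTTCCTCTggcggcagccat
Rplp2, chr7:141447631-141447675, plus strand: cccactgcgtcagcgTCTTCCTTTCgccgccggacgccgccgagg
Rps27, chr3:90213624-90213668, minus strand: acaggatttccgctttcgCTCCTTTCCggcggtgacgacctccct
Rpl31, chr1:39367831-39367875, plus strand: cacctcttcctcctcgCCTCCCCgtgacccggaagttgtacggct
Rps4x, chrX:102189367-102189411, minus strand: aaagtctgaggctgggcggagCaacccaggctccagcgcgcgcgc
Rpl41, chr10:128549144-128549188, minus strand: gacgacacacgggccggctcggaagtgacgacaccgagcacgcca
Rps15, chr10:80292411-80292455, plus strand: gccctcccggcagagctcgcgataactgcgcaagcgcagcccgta
Rpl36al, chr12:69184043-69184087, minus strand: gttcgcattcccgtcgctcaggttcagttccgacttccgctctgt

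The run was 17 bases in Rpl15, 10 in Rplp2, 9 in Rps27 and 7 in Rpl31. Of the 75 windows, 25 (33.3%) had a run of at least 5 bases, against 13.3% of the 32851 promoters of all genes in the table, and 25.3% had a run of at least 8 bases, against 4.54%. On either strand, CCGGAAG, the core of the ETS and GABP motif, was in 34.7% of the ribosomal protein promoters and 8.86% of all promoters. AAGATGG, a YY1 motif, was in 16% and 6.34%, and GGGCGG, an Sp1 motif, was in 60% and 35.7%. The telomere repeat TTAGGG was in 10.7% and 10.6%, and the G-quadruplex motif, which can overlap GGGCGG, in 13.3% and 18.6%. These matches describe letters in a window around an annotated start, which need not be the start used in MuSCs.

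Libraries held 620506 to 1351130 estimated counts. Between 19996 and 21879 genes had a count in 15 libraries, and 15387 in replicate 3 of the 3 DPI TRF2 MuSC-cKO group, which also had counts for 74 of the 84 genes (81 to 84 elsewhere). This library stood apart, so several results that rest on it are also given without it. Terf2, counted over the whole gene, was at 76.4 ± 12.5 CPM (normalised counts scaled to library size, SD, n = 4) in uninjured control and 45.6 ± 13.2 in uninjured TRF2 MuSC-cKO MuSCs, with no overlap. At 3 DPI it was at 43.8 ± 6.11 in control and 57.8 ± 28.4 in the libraries labelled TRF2 MuSC-cKO, so that Terf2 mRNA was not lower in these. Stem cell markers were present in every group, summed over 9 genes at 3460 to 5360 CPM in uninjured control and 443 to 619 CPM at the lowest, in 3 DPI cKO. Library names carry codes whose meaning the labels do not give. No code was shared by the genotypes without injury, where code and genotype cannot be told apart. In each uninjured group all libraries except replicate 4 shared a single code, which did not occur at 3 DPI. Code and injury were therefore also largely tied in both genotypes.

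All 84 genes had counts in some library. Per transcript length (TPM, from the abundance-scaled table), the median gene was at 833 TPM over the 16 libraries, 770 among large and 863 among small subunit genes, and 76 genes were above 100 TPM. In the large subunit Rpl41, which encodes a very short basic peptide, and Rpl23a, a protein at the exit of the nascent chain tunnel, were the most abundant over the 16 libraries at 2270 and 1980 TPM. Rpl41 led through control at 3 DPI (3670 ± 534 TPM), while in uninjured control it was at 2050 ± 313 TPM, under Rpl23a at 2950 ± 696 TPM and Rplp2 at 2930 ± 489 TPM. In the small subunit Rps15, a protein of the head, was the most abundant at 2070 TPM. The least abundant were the paralogs Rpl39l (11.4 TPM) and Rpl10l (13.7 TPM) in the large subunit, and in the small subunit the paralog Rps4l (30.5 TPM) and the core 40S gene Rps15a (51.7 TPM).

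The genes took the largest share of the library in uninjured control MuSCs and the smallest in cKO MuSCs at 3 DPI. In uninjured control MuSCs the 4 libraries gave 2.94, 2.98, 2.69 and 3.08% of estimated counts to them, a mean of 2.92 ± 0.166%. In uninjured TRF2 MuSC-cKO MuSCs the shares were 1.23, 1.88, 1.69 and 1.98%, a mean of 1.70 ± 0.333%. Every uninjured cKO library was below every uninjured control library. At 3 DPI the control shares were 1.70, 2.05, 2.08 and 2.41%, and the cKO shares 1.46, 1.30, 0.868 and 1.31%, again without overlap between genotypes. By abundance, which weights short mRNAs more, the group means were 11.5, 6.81, 7.34 and 4.51% in the order control uninjured, cKO uninjured, control 3 DPI and cKO 3 DPI. In bulk libraries, fewer cells of a type and less RNA per cell cannot be told apart.

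**Figure D1:**
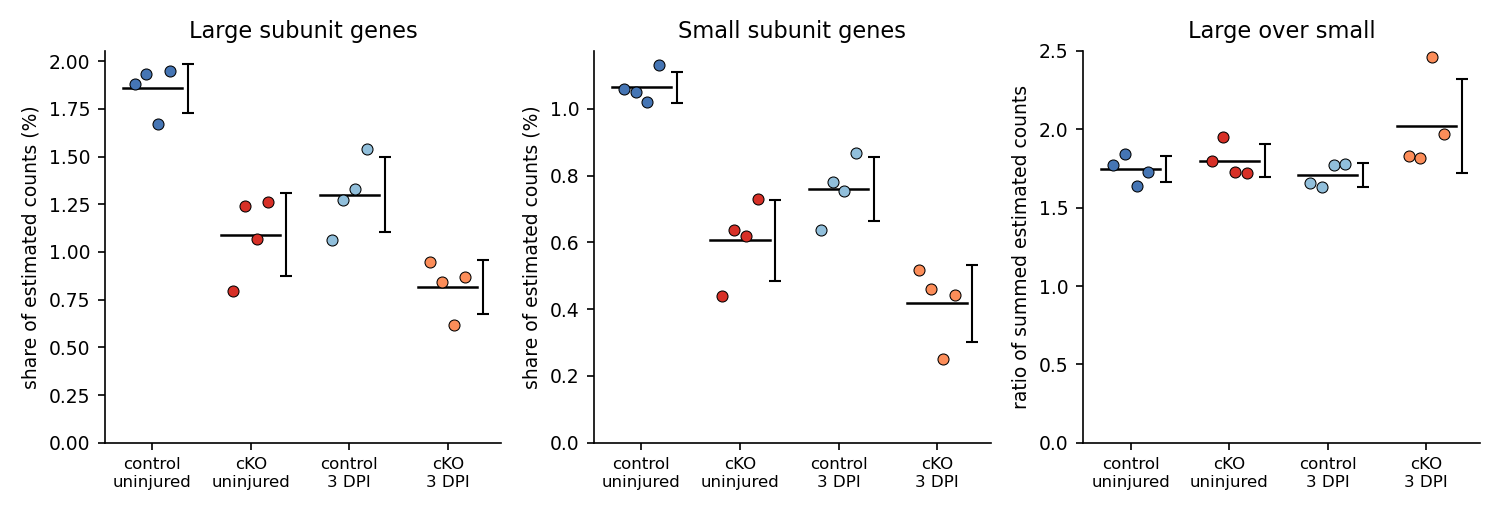
Share of estimated counts (%) in the large subunit genes (left) and the small subunit genes (middle), and the ratio of their summed counts (right), with 1 point per library, the group mean as a line and 1 SD as the bar beside it. Both subunits fell together from uninjured control, and the ratio lay between 1.63 and 1.97 in every library except replicate 3 of cKO 3 DPI, at 2.46.

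The large subunit took 1.86 ± 0.129% of counts in uninjured control and 1.09 ± 0.216% in uninjured cKO, and the small subunit 1.06 ± 0.0455% and 0.607 ± 0.121%. The ratio of large to small subunit counts was 1.74 ± 0.0836 in uninjured control, 1.80 ± 0.106 in uninjured cKO and 1.71 ± 0.0748 in control at 3 DPI, with overlapping values. In cKO at 3 DPI it was 2.02 ± 0.301, with the 4 libraries at 1.83, 1.82, 2.46 and 1.97, all above the control libraries at 3 DPI (1.63 to 1.78). Without replicate 3 the mean was 1.87 and the groups still did not overlap.

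In uninjured MuSCs the comparison asks what differs when TRF2 is deleted without injury. Ribosomal protein mRNAs were lower in TRF2 MuSC-cKO across both subunits (median log2 fold change −0.95). Of the 80 genes tested, 61 fell (35 of the large and 26 of the small subunit), all by over 1.5-fold, against 2.63% of all genes tested, and none rose, against 0.584% (edgeR's quasi-likelihood test with Benjamini-Hochberg adjustment, adjusted p under 0.02). At an unadjusted p under 0.05 the number higher was also 0, against 8.98% of all genes, and DESeq2, limma-voom and limma's robust fit called 0 higher. DESeq2 called 69 lower (2.6% of all genes), limma-voom 65 (2.71%) and limma's robust fit 14 (1.01%). Most of the 61 calls were lost in the abundance-scaled table, which called 2 lower, Rpl15 and Rps29 (0.0654% of all genes), and where a single fit held all 16 libraries, which called 13 (0.416%). The medians in these fits were −1 and −1.07. At an unadjusted p under 0.05, 75 of 83 and 68 of 82 genes were lower there, against 8.84 and 7.35% of all genes. In 69 of the 80 the groups did not overlap, with cKO lower, against 9.18% of all genes. The median log2 fold change was −0.93 for the large and −0.99 for the small subunit, and 0.06 for all 14048 genes tested. The 4 genes not tested for low counts were the paralogs Rpl3l, Rpl10l, Rpl39l and Rps4l.

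Rpl15, a protein buried in the ribosomal RNA of the large subunit, fell with the smallest p. It was at 212, 218, 233 and 253 CPM in control and at 78.1, 66.5, 98.8 and 84.4 CPM in cKO libraries, so that the highest cKO library stood far under the lowest control library. Its log2 fold change was −1.36 (SE 0.208, adjusted p = 2.86e-05 by edgeR).
Rps29, a small zinc-binding protein of the 40S subunit, was at 126 to 142 CPM in control and 37.9, 45.7, 50.1 and 54.5 CPM in cKO, without overlap (log2 fold change −1.38, SE 0.235, adjusted p = 0.000134). Rpl37a, a zinc-finger protein of the 60S subunit, fell by 1.34 (SE 0.226, adjusted p = 0.000118), from 178 to 310 CPM in control to 55.6 to 98.8 CPM in cKO. Rpl31, at the rim of the tunnel exit, fell by 1.21 (adjusted p = 0.000136) and Rps20, in the head of the 40S subunit, by 1.16 (adjusted p = 0.000179), both without overlap. Over 24 alternatives Rps29 was called in 21, Rpl37a and Rpl31 in 20 and Rps20 in 19, with Rps20 as near to 0 as −0.09.

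Rps14, a protein of the platform of the 40S subunit (chromosome 18:60747098-60778546, plus strand, GENCODE M21 on GRCm38), was at 541, 411, 408 and 544 CPM in control. In cKO it was at 127, 261, 248 and 242 CPM, with replicate 1 far below the others. The log2 fold change was −0.99 (SE 0.205, adjusted p = 0.00151). Rplp2, an acidic protein of the stalk that recruits elongation factors (chromosome 7:141447370-141451585, plus strand), was at 495, 372, 399 and 619 CPM in control and 176, 215, 273 and 291 CPM in cKO (log2 fold change −0.85, SE 0.202, adjusted p = 0.00566). Both genes were lower in every cKO library than in any control library. Rps14 was called in 18 of 24 alternatives and Rplp2 in 12, with adjusted p up to 0.965 and 0.835 over the edgeR, limma and DESeq2 fits. The most abundant genes fell too, Rpl23a by 0.93 (adjusted p = 0.00458) and Rps15 by 0.99 (adjusted p = 0.00313) on the log2 scale, while Rpl41 missed the threshold (−0.61, SE 0.210, adjusted p = 0.0843). Of 24 alternatives Rpl23a was called in 13 and Rps15 in 15, and with the length and abundance trends both removed they were at 0.18 and 0.14 on the log2 scale, above 0.

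**Figure D2:**
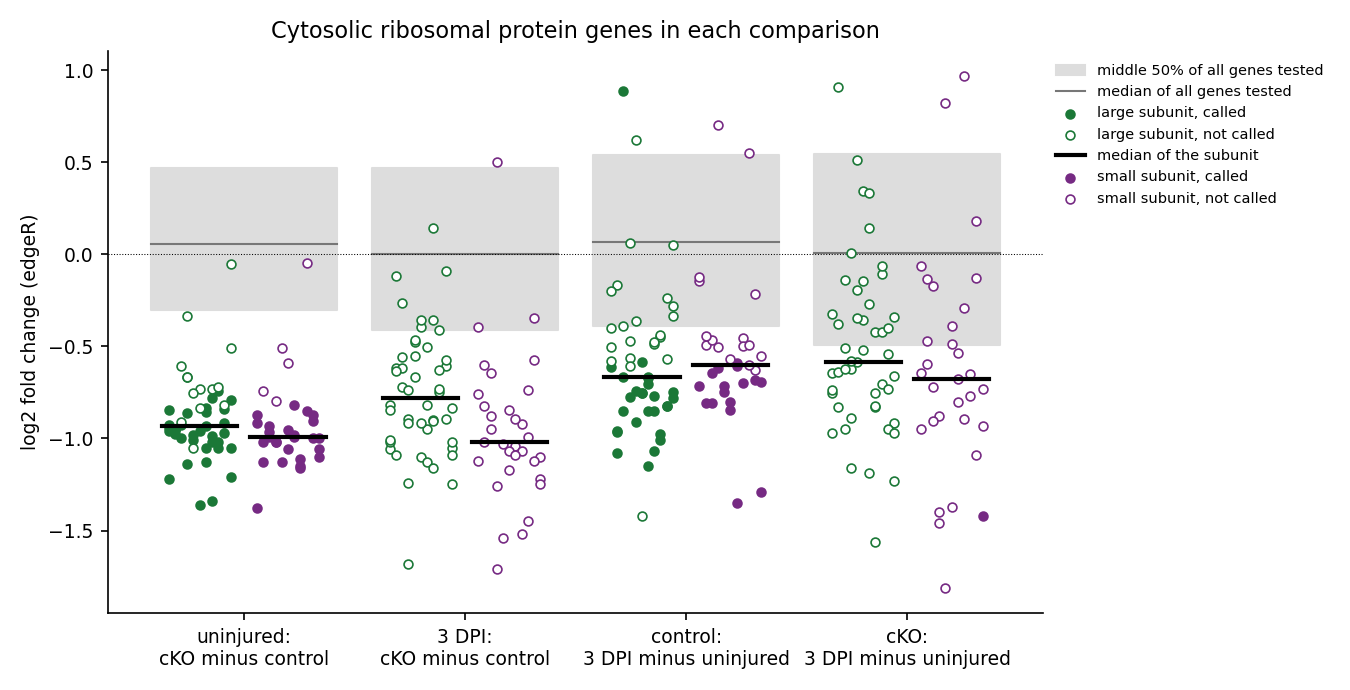
Log2 fold change (edgeR) of each ribosomal protein gene in the 4 comparisons, large subunit in green and small subunit in purple, filled where the adjusted p was under 0.02, with the median of each subunit as a black bar. Grey shows the middle 50% and the median of all genes tested; 61 genes are filled in the first comparison, 0 in the second, 43 in the third and 1 in the fourth.

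Other genes of the translation machinery were counted in the same test. Of 16 genes that carry TOP motifs but are not ribosomal proteins, 11 fell in uninjured cKO and none rose, with a median of −0.89, against 2.63% of all genes lower. Among them the elongation factors Eef2 (−1.05), Eef1d (−1.07) and Eef1a1 (−0.95) had the smallest p. Of 46 ribosome biogenesis genes 1 fell, Npm1 (−1.11), a nucleolar chaperone, with a median of −0.32, a count near the 2.63% of all genes that fell. None of 14 regulators, among them Mtor and Larp1, was called (median −0.17). Of the 3 tested ribosomal genes outside the rule 2 fell, Rps3a1 (−1.22) with the smaller p. By the C/T run at the annotated start, 15 of 24 genes with a run of at least 5 bases fell (median −0.85), and 29 of 36 genes with a shorter run or none (median −0.96).

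Ribosomal protein mRNAs are short and abundant, and length and abundance moved with the genotype in these libraries. The median transcript length was 704 bases for these genes and 2508 for all genes tested. Among other genes at a log2 CPM of 7 or more on average, the median was −0.32 and 14.7% of 1287 fell, and 166 other genes that were both this abundant and short had a median of −0.38 with 22.3% lower. Of the 68 ribosomal protein genes this abundant, 85.3% fell, with a median of −0.96. With a length trend removed from each library, 11 of 80 genes were called lower (2.34% of all genes), with an abundance trend removed 12 (0.947%), and with both removed 1 (0.605%), at a median of −0.07; both trends are fitted over all genes, these included. The one gene called there was Rpl15, which was called in 24 of 24 alternatives, with adjusted p between 2.24e-10 and 0.0171 (edgeR, limma or DESeq2). Rps14 and Rplp2 were at 0.03 and 0.37 there, on the other side of 0. Counts of olfactory and other chemoreceptor genes were 0.220 to 0.453% of the library in control and 0.437 to 0.604% in cKO. All 9 stem cell markers were estimated lower in cKO and 6 were called lower. The sum of the 9 was 3460 to 5360 CPM in control and 1880 to 2860 CPM in cKO. Of 5 fibroadipogenic markers tested Dcn (1.2) and Smoc2 (1.31) rose and Dpt (−1.65) fell, with overlapping sums of 317 to 462 CPM and 283 to 429 CPM. None of 7 macrophage and 4 Schwann cell markers tested was called, but their sums did not overlap, at 87.7 to 129 CPM in control and 146 to 193 CPM in cKO for macrophages and at 240 to 305 CPM and 335 to 460 CPM for Schwann cells. The part of each in the result was not tested.

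At 3 DPI 78 of 80 ribosomal protein genes were estimated lower in cKO, but 44 of 80 with the length and abundance trends both removed. No gene passed the test, which does not show that the genotypes were alike. None of the 80 genes was called, as was 0% of all 14559 genes tested by edgeR. At an unadjusted p under 0.05, 50 were lower in cKO, against 3.58% of all genes, and in 45 the groups did not overlap, with cKO lower, against 4.87%. DESeq2 called 8 and limma's robust fit 28 genes of the table, none of them a ribosomal protein gene, and limma-voom called none. The median log2 fold change was −0.78 in the large and −1.02 in the small subunit, and 0.00144 over all genes. With the length trend removed, 14 were lower at an unadjusted p under 0.05 (2.73% of all genes) and 1 higher, with a median of −0.25. With the length and abundance trends both removed, 7 were lower (2.15%) and 2 higher. The medians there were 0.07 for the large and −0.21 for the small subunit. The smallest p belonged to Rps14, Rplp2 and Rps27a.

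Rps14 was at 255, 291, 355 and 309 CPM in control and at 107 to 172 CPM in cKO libraries, which did not overlap (log2 fold change −1.04, SE 0.225, edgeR unadjusted p = 0.000528, adjusted p = 0.452). Rplp2 was at 230, 274, 298 and 314 CPM against 148, 100, 95.5 and 167 CPM, with all cKO libraries lower (−1.09, SE 0.242, adjusted p = 0.452). Rps27a, made as a fusion with ubiquitin, was at 210 to 287 CPM against 90.9 to 146 CPM (−1.02, SE 0.234, adjusted p = 0.452).
Without replicate 3 of cKO the medians were −0.61 and −0.79, no ribosomal protein gene was called, and 63 of 81 had an unadjusted p under 0.05 and were lower, against 6.5% of all genes in that fit; the smallest adjusted p was 0.0572. With the length and abundance trends both removed, Rps14 was at 0.000831 and Rplp2 at 0.139 on the log2 scale, above 0. Within the 2 control and 2 cKO libraries that share a code in their names, 75 of 81 genes were estimated lower in cKO, with a median of −0.49. Over all 8 libraries at 3 DPI macrophage markers summed to 5550 to 7120 CPM in control and 2330 to 6700 CPM in cKO, and 11 of 12 were estimated lower in cKO. All 8 proliferation genes were estimated lower (median −0.42) and all 5 Schwann cell markers higher (median 0.41), with none called. Fibroadipogenic markers were estimated lower in 5 of 7 genes, and endothelial and myofiber markers in 4 of 8 each. Stem cell markers summed to 798 to 1140 CPM in control and 443 to 619 CPM in cKO, without overlap, and 9 of 9 were estimated lower in cKO (median −0.59), with none called. Other genes that were short and abundant had a median of −0.33 (224 genes), beside −0.88 for the 59 ribosomal protein genes this abundant. Chemoreceptor genes took 0.336 to 0.571% of the library in control and 0.449 to 0.795% in cKO, the highest in replicate 3. The part of each in the estimates was not tested.

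**Figure D3:**
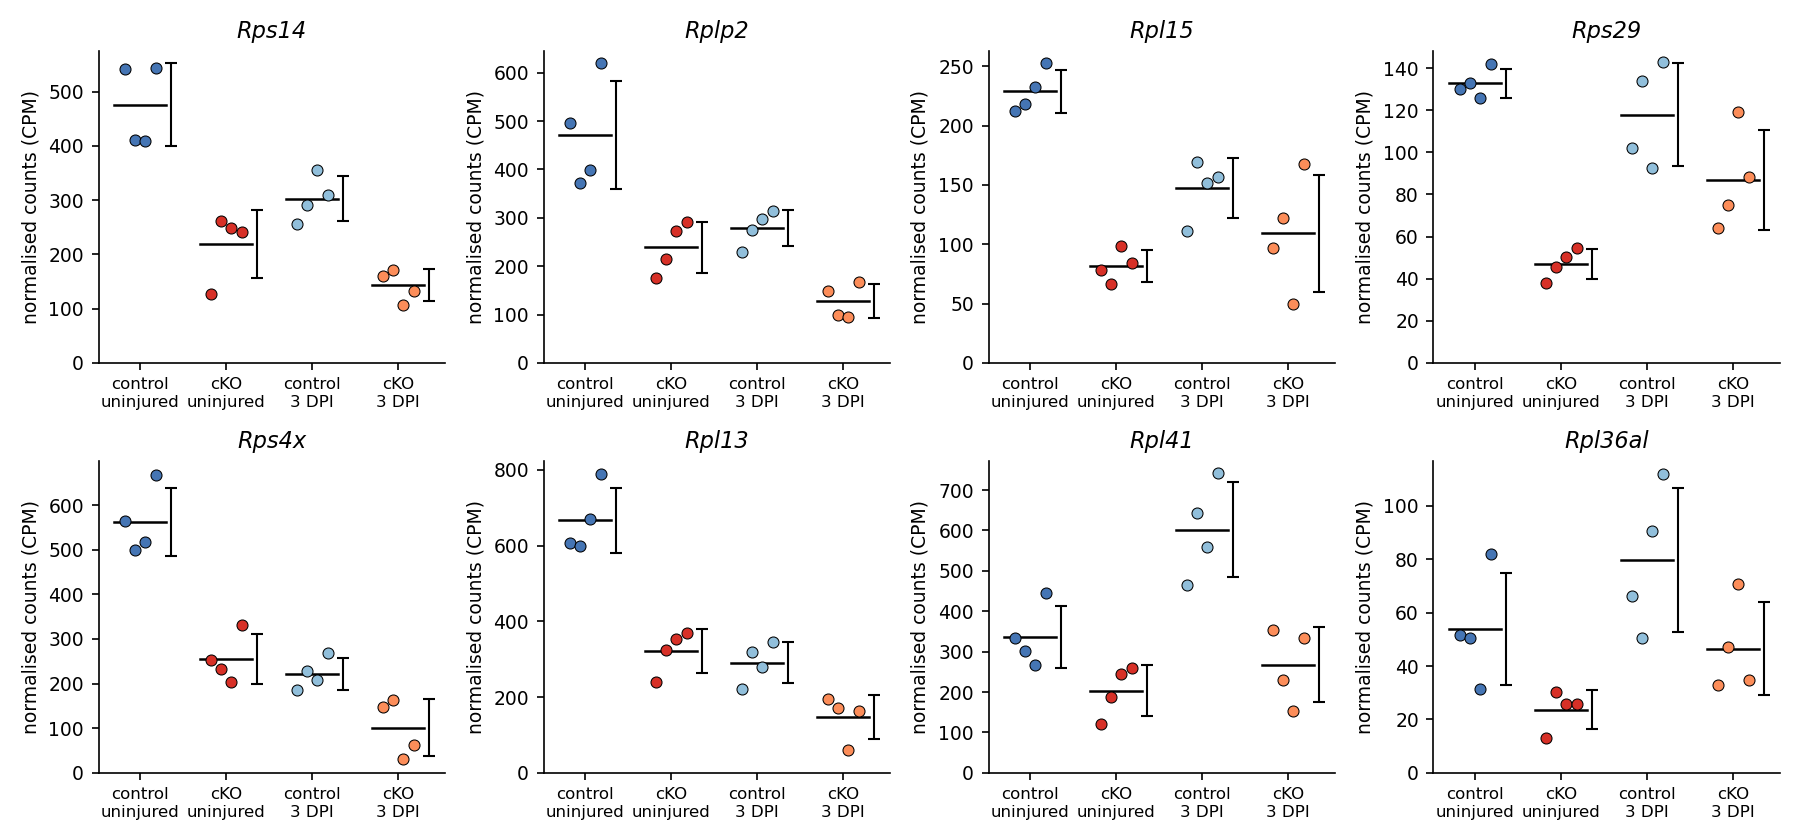
Normalised counts (CPM) of 8 ribosomal protein genes, with 1 point per library, the group mean as a line and 1 SD as the bar beside it. Rps14, Rplp2, Rps4x and Rpl13 were highest on average in uninjured control and lowest in cKO at 3 DPI, Rpl15 and Rps29 were lowest on average in uninjured cKO, and Rpl41 was highest in control at 3 DPI.

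In control MuSCs the comparison of 3 DPI with uninjured muscle asks what differs with injury where TRF2 was not deleted. It does not hold Terf2 mRNA constant, which was at 76.4 ± 12.5 CPM uninjured and 43.8 ± 6.11 CPM at 3 DPI, without overlap. Ribosomal protein mRNAs took a smaller part of the library after injury. Of 81 genes tested, 42 fell (26 large, 16 small), against 9.48% of all genes, and 1 rose, against 10.8% (edgeR, adjusted p under 0.02). In 44 the groups were apart with 3 DPI lower, against 12.3%. The median log2 fold change was −0.61, −0.66 for the large and −0.60 for the small subunit, and 0.07 for all genes. Abundant genes fell often in this comparison: of 1359 other genes averaging 7 or more in log2 CPM 40.3% fell (median −0.37), and of 212 that were also short 33% fell (median −0.11), beside 60.3% of the 68 ribosomal protein genes this abundant (median −0.66).

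Rps4x of the 40S subunit had the smallest p. Rps4x, encoded on the X chromosome, went from 564, 500, 517 and 668 CPM to 185, 228, 207 and 269 CPM, a wide gap between the groups (log2 fold change −1.29, SE 0.190, adjusted p = 4.69e-07). In the large subunit Rpl13 went from 607, 600, 670 and 788 CPM to 222, 318, 279 and 345 CPM, also without overlap (−1.15, SE 0.190, adjusted p = 5.01e-06). Rpl7 fell by 1.08 (adjusted p = 1.11e-05) and Rpl9, at the base of the stalk, by 1.07 (adjusted p = 2.95e-05). Rps14 fell by 0.61 (SE 0.187, adjusted p = 0.0123) and Rplp2 by 0.71 (SE 0.192, adjusted p = 0.00427). Of 24 alternatives Rps14 was called in 13, with a log2 fold change as small as −0.08 and adjusted p up to 0.765 over the edgeR, limma and DESeq2 fits, and Rplp2 in 19. Every one of these 6 genes was lower in each 3 DPI library than in any uninjured library.

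Rpl41 went the other way. It was at 334, 302, 267 and 444 CPM in uninjured control and at 466, 643, 558 and 742 CPM at 3 DPI, above all uninjured libraries (log2 fold change 0.89, SE 0.194, adjusted p = 0.000397). It stayed higher in all 24 alternatives, between 0.33 and 1.46, and was called in 20 of them; with a length trend removed it missed the threshold, with the highest adjusted p at 0.376.

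Markers of other cells and states moved with injury. Macrophage markers rose in 12 of 12 genes, with a median of 5.53 on the log2 scale, from 87.7 to 129 CPM in sum to 5550 to 7120 CPM, although the sort gated out CD45 and CD11b. All 9 stem cell markers fell (median −1.92) and all 8 proliferation genes rose (median 1.94). Of 7 fibroadipogenic markers 5 rose and 1 fell (median 1.59), and of 7 myofiber markers tested 2 rose, with the myofiber sum at 651 to 767 CPM uninjured and 1070 to 1450 CPM at 3 DPI. Of 16 TOP genes that are not ribosomal proteins 5 fell, against 9.48% of all genes, with Eef2 at −1.29. Of 47 biogenesis genes 5 fell, near that share, and 1 rose, Eif6 (1.06), a factor that keeps the subunits apart, against 10.8% of all genes. Sp1 (−1.24) was the only called gene among 14 regulators. The chemoreceptor share was 0.295 ± 0.107% uninjured and 0.429 ± 0.108% at 3 DPI, with overlap. The part of these in the fall of the ribosomal protein genes was not tested. Without replicate 1 of control at 3 DPI 26 genes fell, against 7.95% of all genes. With a length trend removed 68 fell (9.45% of all genes), with an abundance trend removed 9 fell (8.08%) and 2 rose (11.4%), and with both removed 46 fell (8.48%) and 1 rose (11.2%).

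In TRF2 MuSC-cKO MuSCs the same comparison with injury gave a median of −0.62, −0.59 for the large and −0.68 for the small subunit, from the uninjured level that was already lower. Of 79 genes tested 1 fell, against 1.61% of all genes, and 0 rose, against 2.43%. At an unadjusted p under 0.05, 25 were lower at 3 DPI, against 7.72%, and in 10 the groups were apart with 3 DPI lower, against 6.7%. Rpl13 (−1.19, adjusted p = 0.0399) and Rplp2 (−0.97, adjusted p = 0.0517) came next and missed the threshold. Without replicate 3 of cKO at 3 DPI, 4 of 81 genes fell, Rpl13, Rps19 and Rps4x among them, against 3.3% of all genes, and the median was −0.37. Macrophage markers rose in 11 of 12 genes here as well.

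The genotype effects before and after injury were then compared in 1 fit of all 16 libraries. None of 82 ribosomal protein genes was called, and 3 of 16822 genes were, which does not show that the effects were alike. At an unadjusted p under 0.05 the effect at 3 DPI was the more negative for 1 of 82 genes, against 2.17% of all genes, and the more positive for 4, against 3.57%. Rps29 (difference of log2 fold changes 1.05, SE 0.361, adjusted p = 0.638), Rpl15 (1.05, SE 0.390, adjusted p = 0.730) and Rpl36a (0.98, SE 0.363, adjusted p = 0.730) had the smallest p. Rps29 was at 92.4 to 143 CPM in control and 64.3 to 119 CPM in cKO at 3 DPI, overlapping groups where the uninjured ones were apart. For Rps14 the difference was 0.04 (SE 0.338) and for Rplp2 −0.15 (SE 0.339). DESeq2 called 21 and limma's robust fit 123 genes of the table, none of them a ribosomal protein gene. Without replicate 3 of cKO at 3 DPI, edgeR called 13 of 17610 genes and 0 of 82 ribosomal protein genes, whose smallest adjusted p was 0.182. The median difference of the ribosomal protein genes was 0.23 there, and 0.18 with that library.

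Paralogs were compared with their parent genes per length, as the share of the pair's abundance in each library. Rpl36al, a near-identical copy of Rpl36a, was 8.52 to 15.6% of its pair in uninjured control and 10.3 to 13.2% in uninjured cKO. At 3 DPI it was 24.0 to 32.7% in control and 15.6 to 26.1% in cKO. Control libraries at 3 DPI were all above uninjured libraries of either genotype. In counts this was a fall of Rpl36a (−1.01, SE 0.202, adjusted p = 0.000104 in control) beside Rpl36al at 51.8, 50.4, 31.4 and 81.9 CPM uninjured and 66.4, 50.6, 90.5 and 112 CPM at 3 DPI, which overlapped and was not called. The counts behind Rpl36al were 27 to 84 in uninjured control and 43 to 136 in control at 3 DPI. In uninjured cKO Rpl36a fell by 1.02 (SE 0.209, adjusted p = 0.0013).

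Rps27l, a p53 target gene, was 3.88 to 6.10% of the pair with Rps27 in uninjured control and 10.8 to 15.8% in control at 3 DPI, without overlap, on 9 to 17 and 9 to 22 counts per library. Rps27 itself fell with injury in control (−0.85, SE 0.215, adjusted p = 0.00218). In cKO Rps27l had counts in 4 of 4 uninjured libraries (2.88 to 12.3%) and in 2 of 4 at 3 DPI, and replicate 3 had none for either gene. Rps4l was 0.496 to 2.57% of the pair with Rps4x in uninjured control, 0.647 to 4.00% in uninjured cKO, 3.28 to 6.58% in control at 3 DPI and 6.89 to 29.2% in cKO at 3 DPI, where it rested on 2 to 24 counts. In the pairs of Rpl36al, Rps27l and Rps4l the control groups did not overlap between injury states; these shares are descriptions with no test, and reads of near-identical copies can be split between them by the quantification.

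**Figure D4:**
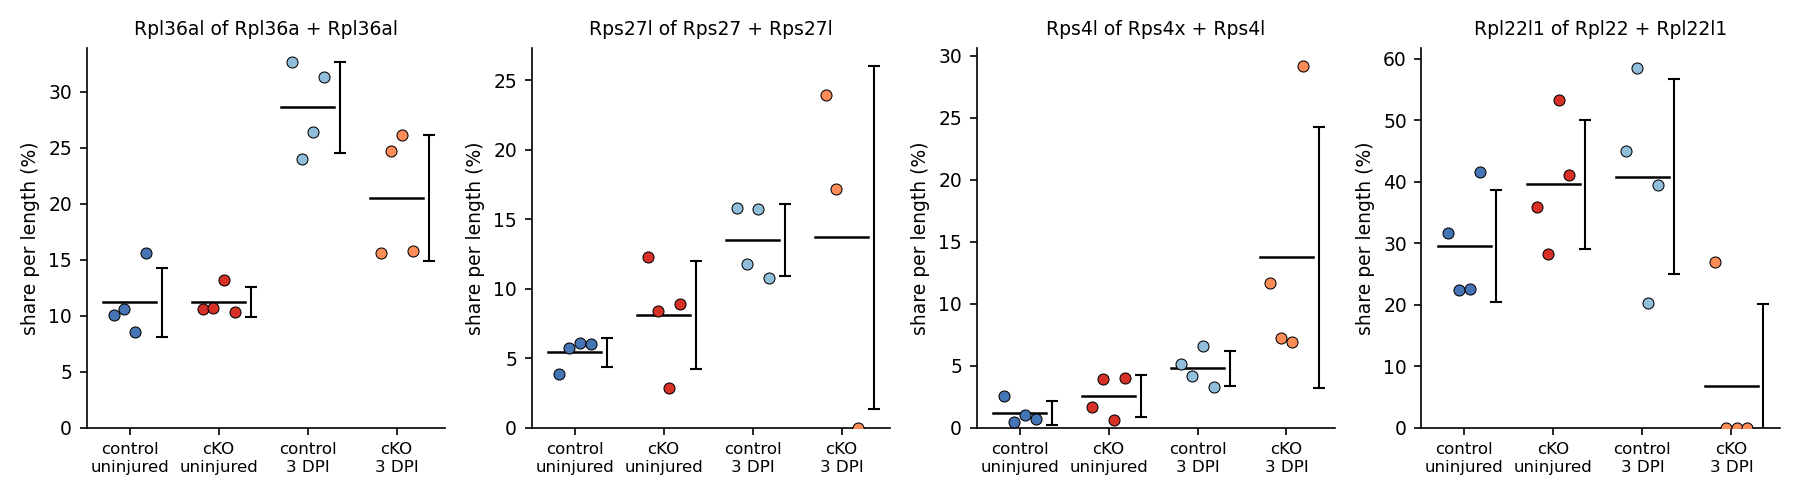
Share of the paralog (%) in the summed abundance of parent and paralog per transcript length, with 1 point per library, the group mean as a line and 1 SD as the bar beside it. The Rpl36al, Rps27l and Rps4l shares are higher in control at 3 DPI than in uninjured control, and Rpl22l1 is at 0 in 3 of 4 cKO libraries at 3 DPI.

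Rpl22l1 was 22.4 to 41.6% of the pair with Rpl22 in uninjured control, 28.2 to 53.2% in uninjured cKO and 20.3 to 58.5% in control at 3 DPI. It had counts in 1 of 4 cKO libraries at 3 DPI, where the others were at 0. Rpl7l1 was 2.71 to 5.86% of the pair with Rpl7 in uninjured control and 5.35 to 7.56% in control at 3 DPI. Rpl3l, the striated muscle form, made 0.479 to 1.14% of its pair in uninjured control and 0.601 to 5.76% in uninjured cKO, Rpl10l 0.729 to 1.90% and 0.986 to 6.50%, and Rpl39l 0 to 2.37% and 0 to 4.18%, which overlap. Of the parents, Rpl3, at the peptidyl transferase centre, fell in uninjured cKO (−0.78, adjusted p = 0.0187), as did Rpl7 (−0.95, adjusted p = 0.00218), Rpl10 (−0.94, adjusted p = 0.00246) and Rps4x (−1.02, adjusted p = 0.000596), while Rpl22, Rpl39 and Rps27 were not called. Of 24 alternatives Rpl3 was called in 12 (highest adjusted p 0.835 over the edgeR, limma and DESeq2 fits), Rpl7 and Rpl10 in 18, Rps4x in 19 and Rpl36a in 17, with Rpl36a at 0.07 on the log2 scale when both trends were removed.

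Across the 16 libraries most of the genes followed each other. The correlation of a gene's log2 CPM with the mean of the other ribosomal protein genes had a median of 0.882, with 35 genes above 0.9 and 7 below 0.5. Rplp0 (0.976) and Rps7 (0.974) were among the most alike. Genes outside the rule followed this mean as closely, with Eef1a1 highest at 0.993. Of 7055 genes averaging 5 or more in log2 CPM, 77 were ribosomal protein genes. The 100 most alike held 35 of these and 65 other genes. The 7 below 0.5 were Rpl30, Rps29, Rpl10l, Rpl3l, Rpl36al, Rps4l and Rpl39l, named after their values were seen; 5 of them are paralogs, and Rpl30 ranged from 0 to 94.6 CPM within the 4 cKO libraries at 3 DPI. The points share the library, its depth and the group, so these values describe the data and carry no test.

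**Figure D5:**
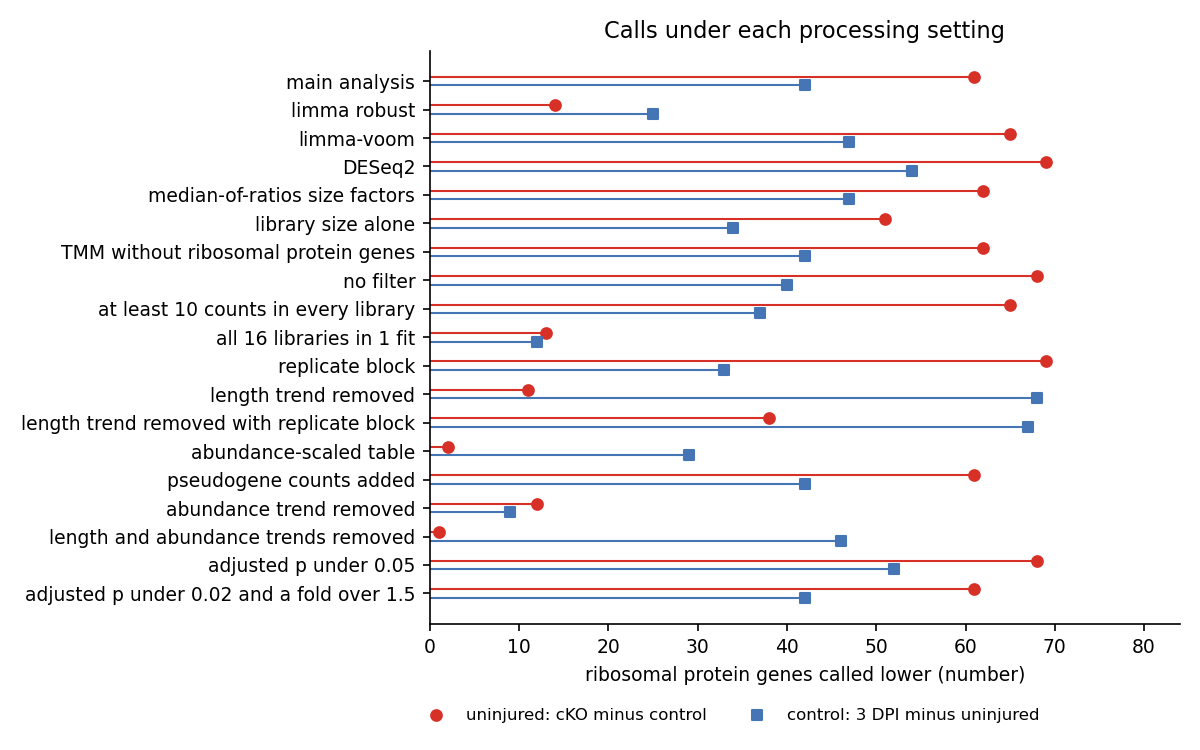
Number of ribosomal protein genes called lower under each processing setting, for cKO against control in uninjured MuSCs (red circles) and for 3 DPI against uninjured in control MuSCs (blue squares). The first count runs from 1 to 69 and the second from 9 to 68, with opposite responses when the length trend is removed.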

How the data were processed

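RNA-seq libraries (CORALL total RNA kit, random primed) were made from sorted MuSCs, with 4 biological replicates per group. Per the labels, the authors trimmed reads with Trim Galore 0.6.7, aligned them with STAR 2.6.1d to GRCm38 (mm10) and quantified them with Salmon 1.5.2. The kit adds molecular identifiers, and whether they were used is not given in the sources used here. The authors deposited estimated counts per gene, unnormalised, and a second table of estimated counts scaled to abundance, used here as TPM after division by the library's sum.

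Estimated counts were rounded. Genes were filtered with filterByExpr, scaled by TMM and tested with edgeR 4.0.16 (R 4.3.3, robust quasi-likelihood fit, Benjamini-Hochberg adjustment over all genes tested, threshold 0.02). Each comparison used its own 8 libraries, and the interaction all 16. CPM used TMM over 16 libraries. Replicates differed by more than sampling noise (lowest chi-square per degree of freedom 3.09). The fit was tested on simulated counts. Length and abundance trends were lowess fits (span 0.3) over all genes. Alternatives used limma 3.58.1, DESeq2 1.42.0, other filters, scalings and left-out libraries.

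Genes named were Rps14, Rplp2, the paralog pairs, the 5 called genes of smallest p per direction and comparison (3 of smallest p where fewer than 3 were called), and the 2 most and 2 least abundant genes per subunit. The members, lists and this rule were chosen with earlier results of these data known. Some genes that this rule names are not reported here.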

Additional observations from a re-analysis of the deposited data

Results flagged for a closer look

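The 29 named genes and 4 measures of each library (share of counts, ratio of subunits, genes detected and chemoreceptor share) gave 132 groups of 4 values, which were searched for a single library far from the other 3 (gap over range above 0.829, Dixon's 95% value), and 5 were found, against about 5% of groups by chance. Rps14 was at 127 CPM in replicate 1 of uninjured cKO, with the others at 242 to 261 CPM. Rps4l was at 15.7 CPM in replicate 3 of control at 3 DPI, with the others at 9.87 to 10.8 CPM. Replicate 3 of cKO at 3 DPI, the library with the fewest genes detected, was low for Rps20 (52.1 CPM, others 149 to 153 CPM) and high for Rpl7 (336 CPM, others 197 to 216 CPM). Rpl22l1 was at 7.01 CPM in replicate 1 of cKO at 3 DPI and at 0 in the others.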

How the results depend on the processing

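Over 34 named results and 908 alternatives, 772 kept direction and side of the threshold, 119 lost the call, 10 gained one and 7 changed sign. In brackets is the share of all genes called lower in the same fit. Uninjured, 61 ribosomal protein genes were called (2.63%). The number was 13 when a single fit held all 16 libraries (0.416%), 14 with limma's robust fit (1.01%), 2 in the abundance-scaled table (0.0654%), 11 with the length trend removed (2.34%), and, in settings chosen after seeing the data, 12 with the abundance trend (0.947%) and 1 with both trends removed (0.605%). Leaving out a library gave 43 to 65 (1.43 to 3.2%). Counts for injury in control hold both directions, and their brackets give the share of all genes called lower, then higher. In the main fit 43 were called, 42 lower and 1 higher (9.48 and 10.8%). A single fit of all 16 libraries called 12 (4.36 and 5.12%) and limma's robust fit 27 (9.1 and 11.7%). Without the length trend 68 were called (9.45 and 9.78%), and without the abundance trend 11, 9 lower and 2 higher (8.08 and 11.4%). Leaving out a library gave 27 to 56 (7.39 to 10.5% and 8.45 to 10.1%). For injury in cKO, 1 was called (1.61%), against 4 with DESeq2 (1.79%) and 3 with at least 10 counts in every library (4.4%). The number was 4 with all 16 libraries (2.87%), 5 without the length trend (1.29%), 6 without both (1.31%) and 0 in the scaled table (0.63%). Leaving out a library gave 0 to 4 (0.865 to 3.3%). It was 0 without any 1 of cKO uninjured replicates 2, 3 and 4 or cKO 3 DPI replicates 1, 2 and 4. The genotype comparison at 3 DPI and the interaction gave 0 in every setting run. The cause was not tested.

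With both trends removed, log2 fold changes turned positive in uninjured cKO for Rps14 (0.0275), Rplp2 (0.372), Rpl36a (0.0677), Rpl23a (0.182) and Rps15 (0.135), and at 3 DPI for Rps14 (0.000831) and Rplp2 (0.139). In the abundance-scaled table the shares were 11.5, 6.81, 7.34 and 4.51% in control uninjured, cKO uninjured, control 3 DPI and cKO 3 DPI. Leaving out a library they were 2.87 to 3.00, 1.60 to 1.85, 1.94 to 2.18 and 1.16 to 1.36% of counts.

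Same-numbered replicates did not deviate together (correlations −0.11 to 0.11), so the numbers do not pair the samples; 2 of 4 correlated best with their own number uninjured and 0 of 4 elsewhere. With the replicate block, 69 genes were called uninjured (2.84%), 34 in either direction for injury in control (7.3% lower, 8.48% higher) and 0 for injury in cKO (0.854%). With the block and the length trend removed, the numbers were 38 (2.92%), 67 (7.21% lower, 7.61% higher) and 3 (0.842%). Depth limits the paralogs, several of which rest on under 10 counts per library.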
